A study of Mus musculus with 12 samples.

Results

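The ATF4 genes of the integrated stress response were followed in astrocytes of the mouse brain after stroke. The set holds 10 genes, picked by symbol from the 48709 genes of the deposited tables: Atf4, Ddit3, Atf5, Trib3, Chac1, Sesn2, Asns, Mthfd2, Psat1 and Phgdh. All 10 were found, and all 10 had enough counts to be tested. The cells carried ACSA-2, an antigen on the surface of astrocytes, and were taken 24 h after tMCAO, a stroke model in which the middle cerebral artery is occluded for a time on 1 side of the brain and then reopened. The ipsilateral hemisphere is the occluded one and the contralateral hemisphere the opposite one.

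All mice were C57BL/6, aged 90 to 120 postnatal days, and carried Gfap-CreERT2+/- together with floxed alleles. Gfap-CreERT2 is a tamoxifen-dependent Cre recombinase driven by the Gfap promoter, which is active in astrocytes. The 4 groups were Astro-KO ipsilateral and Astro-KO contralateral (mice 295, 298 and 300, given tamoxifen) and WT ipsilateral and WT contralateral (mice 296, 297 and 474, given corn oil). Astro-KO is short for Nhe1 Astro-KO, the name in the sample titles. Each mouse gave 1 library per hemisphere, which makes 3 libraries per group and 12 in all. The drug and the deletion cannot be told apart, because only Astro-KO mice received tamoxifen, and none of the samples analysed here came from a mouse without occlusion.

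When a cell lacks amino acids, accumulates misfolded protein in the endoplasmic reticulum or lacks haem, or when a virus infects it, stress kinases phosphorylate the translation factor eIF2. General translation slows while translation of the Atf4 mRNA goes up, and the ATF4 protein then switches on genes for amino acid synthesis and uptake, for tRNA charging and, under lasting stress, for cell death. RNA was measured here, so neither eIF2 phosphorylation nor ATF4 protein is among the readouts. In astrocytes the serine synthesis genes Phgdh and Psat1 are also known for high expression without any stress.

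ATF4 and its C/EBP partners bind a composite element whose core reads TGATGNAA. This core was searched on both strands in RefSeq promoter windows (build GRCm38.p6) that run from 250 bases before to 50 bases after the annotated start. It was found in 3 of the 10 genes, Chac1, Trib3 and Asns, and in 1219 of the 27025 genes with a window (4.51%). Some genes have several windows: the 10 genes have 12, and over all genes 3.97% of 32851 windows held the core. These 3 genes were among those with the largest ipsilateral changes described further on, so their 30-base stretches are shown, on the strand of the gene, with the core in capitals.

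Chac1: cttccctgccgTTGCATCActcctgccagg

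Trib3: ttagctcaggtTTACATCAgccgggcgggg

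Asns: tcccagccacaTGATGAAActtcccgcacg

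The Chac1 stretch lies on the plus strand at chr2:119351038-119351067, upstream of the start, and its core reads TGATGCAA on the opposite strand. The Trib3 stretch lies on the minus strand at chr2:152344028-152344057, just after the RefSeq start. Its core lies just outside the GENCODE gene and reads TGATGTAA on the opposite strand. The Asns stretch lies on the minus strand at chr6:7693214-7693243, and its core reads TGATGAAA on the strand of the gene, before the RefSeq start but inside a GENCODE transcript. The endoplasmic reticulum stress response element, searched in the same way, was found in 0 of the 10 genes and in 0.14% of genes with a window, so no match of it overlaps these cores. A match of letters is a description of the sequence and says nothing about binding in these cells.

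Libraries held 11187723 to 15780600 counts and showed 18292 to 19024 genes with at least 1 count. Astrocyte markers were present in all of them: the 10 markers summed to 18162 to 27929 CPM (counts scaled by the adjusted library size) in Astro-KO ipsilateral libraries and 10274 to 12135 CPM in WT ipsilateral ones, against 23595 to 28125 CPM in Astro-KO contralateral and 17360 to 22858 CPM in WT contralateral libraries. RNA of other cells was present too, with the 10 oligodendrocyte markers at 10003 to 23489 CPM in Astro-KO ipsilateral, 14254 to 22376 CPM in WT ipsilateral, 5657 to 7947 CPM in Astro-KO contralateral and 18210 to 19641 CPM in WT contralateral libraries. Both libraries of WT mouse 296 had 4 to 8 counts of Xist and 2733 to 2917 counts of Y-linked genes, while the other 10 libraries had 9140 to 29592 and 0 to 8. By this RNA mouse 296 was male and the other mice were female. All Astro-KO mice were thus female, and the WT mice were of both sexes. In bulk RNA, fewer cells of a type and less RNA per cell cannot be told apart, and the part of these differences in the results that follow was not tested. Values are listed for mice 295, 298 and 300 (Astro-KO) and for mice 296, 297 and 474 (WT).

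Levels were compared between genes in TPM, deposited values that correct for gene length. Atf4 had the highest mean of the 10 in both ipsilateral groups, 463 ± 87.1 TPM in Astro-KO and 493 ± 6.51 TPM in WT (SD, n = 3 each). On the contralateral side the serine synthesis genes came first, with Phgdh at 412 ± 49.1 TPM in Astro-KO and Psat1 at 440 ± 15.8 TPM in WT libraries, and Atf4 came after both of them at 266 ± 12.5 TPM in Astro-KO and 296 ± 69.0 TPM in WT libraries. Ddit3 and Atf5 came next with group means of 40.4 to 95.9 TPM, and their library ranges overlapped in each of the 4 groups. On the ipsilateral side the means of Sesn2 (45.2 TPM in Astro-KO, 57.7 TPM in WT) and of Asns in WT (52.4 TPM) also lay in this span. Trib3 and Chac1 were the lowest genes in all 4 groups, with contralateral means of 3.08 and 2.13 TPM in Astro-KO and 4.04 and 2.64 TPM in WT libraries. The contralateral ranges of Psat1 and Phgdh overlapped in WT libraries but not in Astro-KO libraries, and in Astro-KO ipsilateral libraries the ranges of Atf4, Psat1 and Phgdh overlapped their neighbours in this order.

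**Figure D1:**
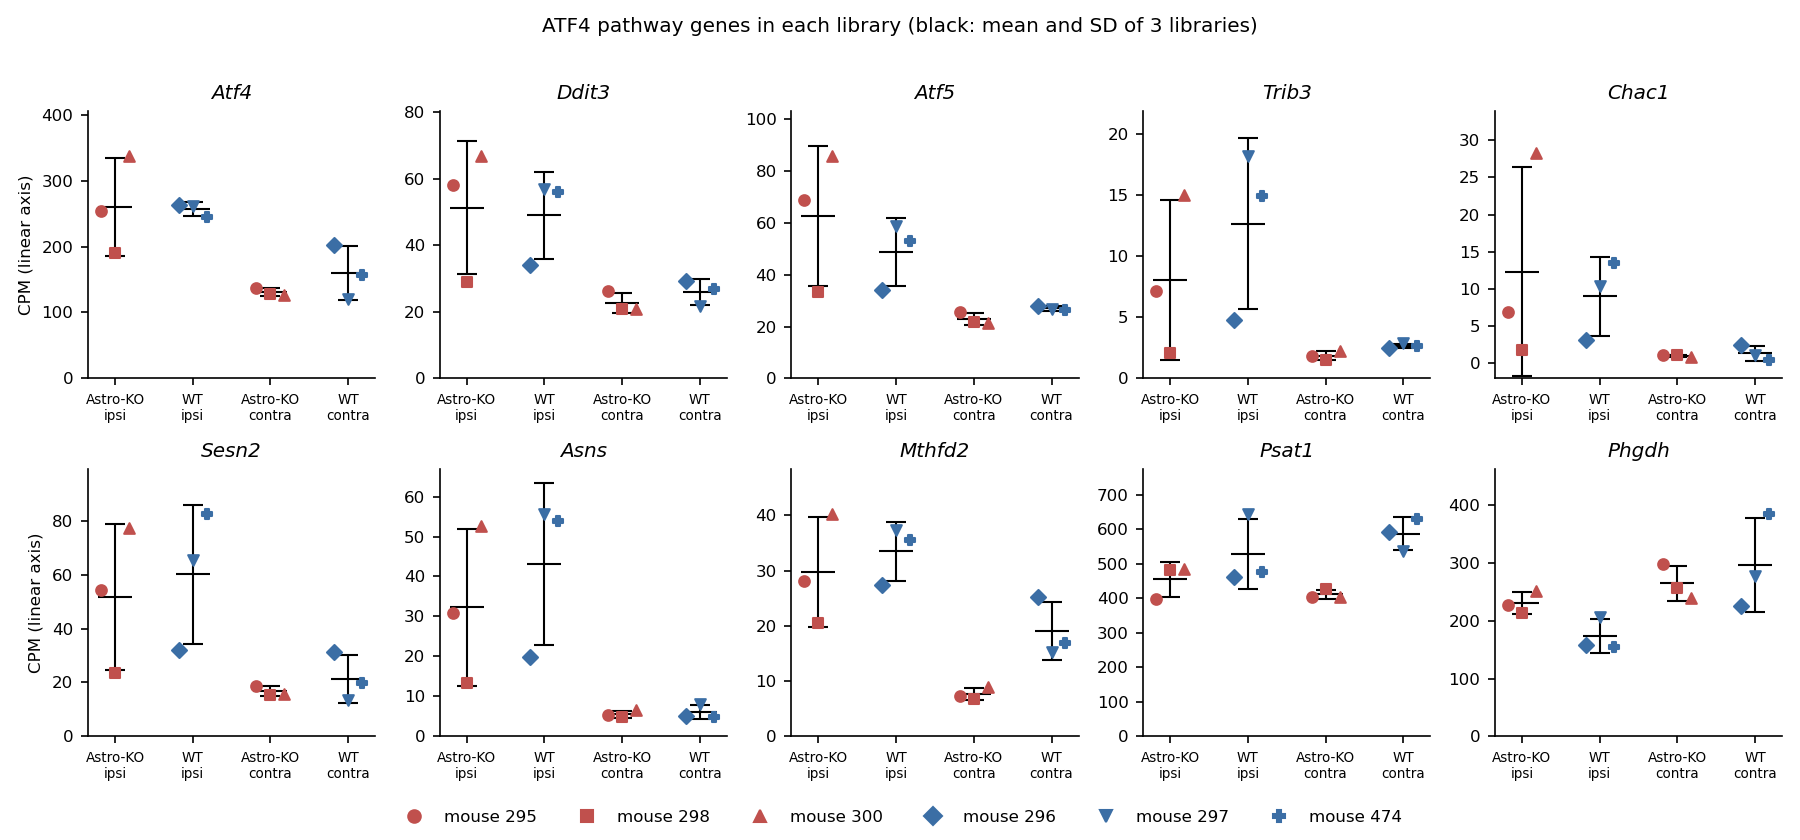
CPM of each of the 10 genes in each library (vertical axes linear, 1 per gene), with Astro-KO in red, WT in blue, 1 symbol per mouse, and black bars for the mean and SD of the 3 libraries of a group. Asns ipsilateral libraries run from 13.4 to 55.7 CPM and contralateral ones from 4.88 to 8.02 CPM, while Psat1 overlaps between sides in both genotypes.

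The first question was how these genes differed between the hemispheres. In Astro-KO mice 7 of the 10 were higher on the ipsilateral side and 0 lower, where 5.45% of the 15571 genes tested were higher and 0.841% lower (edgeR quasi-likelihood test, Benjamini-Hochberg adjusted p under 0.05). In WT mice 6 were higher and 1, Phgdh, was lower, where 9.61% of genes were higher and 9.54% lower. The genes that rose in both genotypes were 5: Atf4, Ddit3, Sesn2, Asns and Mthfd2. The median log2 fold change of the 10 was 1.54 in Astro-KO and 0.88 in WT mice, beside -0.011 in Astro-KO and -0.058 in WT mice over all genes tested. All ipsilateral libraries lay above all contralateral ones for 7 of the 10 genes in Astro-KO mice, where 18.6% of genes tested did, and for 8 in WT mice, where 17.3% did, and they lay below for 1 in WT mice, where 16.6% did.

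Transcription factors come first in the pathway. Atf4 itself (ENSMUSG00000042406, plus strand, chr15:80255184-80257541 of GRCm38) stood at 253, 190 and 338 CPM in Astro-KO ipsilateral libraries against 138, 128 and 127 CPM in Astro-KO contralateral ones. Its WT values were 263, 262 and 245 CPM on the ipsilateral side against 202, 121 and 157 CPM on the contralateral side. All ipsilateral libraries lay above all contralateral ones of their genotype, and the WT ipsilateral libraries lay closer together than the Astro-KO ipsilateral ones. The log2 fold change was 0.99 ± 0.21 (SE) in Astro-KO (adjusted p = 0.0233) and 0.68 ± 0.21 in WT mice (adjusted p = 0.0429), by edgeR. In TPM the log2 changes were 0.78 in Astro-KO and 0.76 in WT mice, both still past the threshold.

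Ddit3 (ENSMUSG00000025408, plus strand, chr10:127290774-127296288), which encodes CHOP, a transcription factor linked to cell death under lasting stress, had 58.2, 28.9 and 66.9 CPM in Astro-KO ipsilateral libraries against 26.2, 21.0 and 20.9 CPM in Astro-KO contralateral ones. WT mice had 34.0, 56.9 and 56.0 CPM in ipsilateral against 29.3, 21.8 and 26.8 CPM in contralateral libraries. The sides did not overlap in either genotype, though Astro-KO mouse 298 and WT mouse 296 came close to the contralateral range. Its log2 fold change was 1.18 ± 0.29 in Astro-KO (adjusted p = 0.0348) and 0.92 ± 0.29 in WT mice (adjusted p = 0.0435). The Astro-KO call was lost in TPM, where the change was 0.91 (adjusted p = 0.0730, limma). Exons of Ddit3 overlap those of Mars and Gm4189 on the other strand and those of a second entry named Ddit3 on the same strand. The strand of counting is not given in the sources used here, so reads of these entries may be mixed.

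Atf5 (ENSMUSG00000038539, minus strand, chr7:44812256-44816658), a relative of Atf4 that is also translated when eIF2 is phosphorylated and is tied to mitochondrial stress, reached 68.9, 33.2 and 85.9 CPM in Astro-KO ipsilateral libraries against 25.6, 21.8 and 21.5 CPM in Astro-KO contralateral ones. The WT values were 34.0, 58.9 and 53.1 CPM in ipsilateral against 27.9, 26.8 and 26.3 CPM in contralateral libraries. The sides were apart in both genotypes, and the contralateral libraries were tight. It rose in Astro-KO mice by 1.44 ± 0.29 log2 (adjusted p = 0.0193). In WT mice the log2 fold change of 0.85 ± 0.29 missed the threshold (adjusted p = 0.0608), and passed it with the mouse as a block (adjusted p = 0.0496) and with DESeq2 (adjusted p = 0.0287). Its exons overlap Il4i1 and Nup62 on the other strand, so the same limit on strand applies.

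The second group acts on the pathway or on cell survival. Trib3 (ENSMUSG00000032715, minus strand, chr2:152337422-152344032), a pseudokinase induced by ATF4 and CHOP that feeds back on ATF4, was at 7.11, 2.04 and 15.0 CPM in Astro-KO ipsilateral libraries against 1.80, 1.54 and 2.27 CPM in Astro-KO contralateral ones. WT libraries held 4.81, 18.2 and 14.9 CPM in ipsilateral against 2.52, 2.86 and 2.64 CPM in contralateral libraries. The WT sides were apart, while the ipsilateral library of Astro-KO mouse 298 lay inside the Astro-KO contralateral range. Trib3 rose in WT mice by 2.24 ± 0.62 log2 (adjusted p = 0.0265). In Astro-KO mice the log2 fold change of 2.08 ± 0.63 missed the threshold (adjusted p = 0.0692) and passed it with the mouse as a block (adjusted p = 0.0416) and with DESeq2 (adjusted p = 0.00872).

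Chac1 (ENSMUSG00000027313, plus strand, chr2:119351229-119354381), an enzyme that breaks down glutathione, showed the widest spread. It had 6.89, 1.83 and 28.3 CPM in Astro-KO ipsilateral libraries against 1.06, 1.10 and 0.819 CPM in Astro-KO contralateral ones. WT mice had 3.15, 10.4 and 13.5 CPM in ipsilateral against 2.44, 1.11 and 0.496 CPM in contralateral libraries. The sides did not overlap, yet single ipsilateral libraries differed by over an order of magnitude within Astro-KO, and the contralateral values rest on 6 to 28 counts per library. The log2 fold change was 3.61 ± 0.92 in Astro-KO mice (adjusted p = 0.0401) and was no longer called with the mouse as a block (adjusted p = 0.0740) or in TPM (2.27, adjusted p = 0.0904, limma). In WT mice it was 2.74 ± 0.89 and fell just short (adjusted p = 0.0504), while DESeq2 called it (adjusted p = 0.00475).

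Sesn2 (ENSMUSG00000028893, minus strand, chr4:132492032-132510501), which restrains the growth kinase complex mTORC1 when leucine is scarce, was measured at 54.5, 23.6 and 77.5 CPM in Astro-KO ipsilateral libraries against 18.8, 15.4 and 15.9 CPM in Astro-KO contralateral ones. Its WT values were 32.1, 65.6 and 82.7 CPM in ipsilateral against 31.1, 13.6 and 19.7 CPM in contralateral libraries. The sides were apart in both, but in WT mouse 296 they were nearly equal, with 1.03 times as much on the ipsilateral side. It rose by 1.63 ± 0.44 log2 in Astro-KO (adjusted p = 0.0495) and by 1.49 ± 0.44 in WT mice (adjusted p = 0.0342). Both calls were lost with the mouse as a block (adjusted p = 0.0666 in Astro-KO and 0.0506 in WT mice), and the Astro-KO call also in TPM (1.26, adjusted p = 0.0917, limma).

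The third group makes amino acids and one-carbon units. Asns (ENSMUSG00000029752, minus strand, chr6:7675169-7693254), asparagine synthetase and a standard target of ATF4, had 30.9, 13.4 and 52.5 CPM in Astro-KO ipsilateral libraries against 5.24, 4.93 and 6.55 CPM in Astro-KO contralateral ones. WT libraries held 19.8, 55.7 and 53.8 CPM in ipsilateral against 5.13, 8.02 and 4.88 CPM in contralateral libraries. No ipsilateral library of either genotype came down to the contralateral values. Asns rose 5.75-fold in Astro-KO (log2 2.52 ± 0.49, adjusted p = 0.0172) and 7.16-fold in WT mice (log2 2.84 ± 0.49, adjusted p = 0.00340). Its WT call held in all 26 alternatives run for it, which no other gene of the set that rose did.

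Mthfd2 (ENSMUSG00000005667, minus strand, chr6:83305691-83325908), a mitochondrial enzyme of folate-bound one-carbon metabolism, stood at 28.1, 20.5 and 40.3 CPM in Astro-KO ipsilateral libraries against 7.36, 6.76 and 8.88 CPM in Astro-KO contralateral ones. The WT values were 27.4, 37.4 and 35.6 CPM in ipsilateral against 25.1, 15.2 and 16.9 CPM in contralateral libraries. The ipsilateral levels of the genotypes overlapped, whereas the contralateral ones did not. It rose 3.85-fold in Astro-KO (log2 1.95 ± 0.27, adjusted p = 0.00568) and 1.75-fold in WT mice (log2 0.81 ± 0.26, adjusted p = 0.0468).

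Psat1 and Phgdh, the aminotransferase and the dehydrogenase of serine synthesis, were not called higher on the ipsilateral side in either genotype. Psat1 (ENSMUSG00000024640, minus strand, chr19:15904678-15947337) had 397, 481 and 486 CPM in Astro-KO ipsilateral libraries against 403, 427 and 403 CPM in Astro-KO contralateral ones. WT mice had 463, 645 and 475 CPM in ipsilateral against 593, 536 and 630 CPM in contralateral libraries. The sides overlapped in both genotypes, with log2 fold changes of 0.15 (95% interval -0.20 to 0.49) in Astro-KO and -0.15 (-0.49 to 0.19) in WT mice, and in TPM the Astro-KO change was -0.030.

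Phgdh (ENSMUSG00000053398, minus strand, chr3:98313170-98339990) had 227, 214 and 252 CPM in Astro-KO ipsilateral libraries against 298, 256 and 240 CPM in Astro-KO contralateral ones. WT libraries held 157, 207 and 155 CPM in ipsilateral against 226, 278 and 386 CPM in contralateral libraries. The Astro-KO sides overlapped and the WT sides did not. Phgdh fell in WT mice by 0.78 on the log2 scale (SE 0.20, adjusted p = 0.0183), and its log2 fold change in Astro-KO was -0.20 ± 0.19 (adjusted p = 0.539). In the same WT libraries 7 of the 10 astrocyte markers fell and 0 rose, with a median log2 change of -0.87, while in Astro-KO 1 rose and 0 fell, with a median of -0.26. Their part in the Phgdh result was not tested. The annotation lists a pseudogene of Phgdh, and its counts per RPKM, taken relative to the median gene of each library, varied by 2.82% between libraries, whereas those of the other 9 genes were constant.

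**Figure D2:**
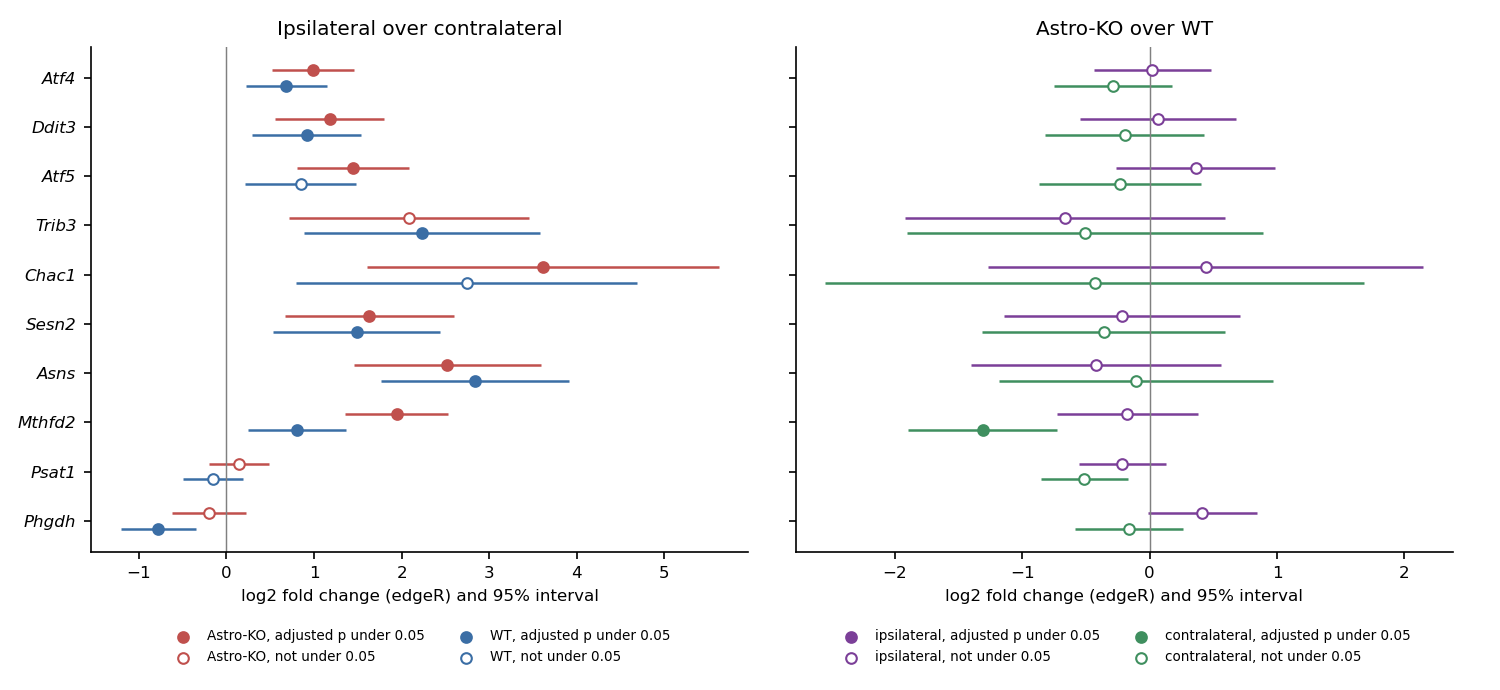
Log2 fold changes (edgeR, horizontal axes) with 95% intervals for the 10 genes, ipsilateral over contralateral on the left (Astro-KO red, WT blue) and Astro-KO over WT on the right (ipsilateral purple, contralateral green), filled where the adjusted p was under 0.05. On the left 8 genes lie right of 0 in both genotypes, and on the right Mthfd2 in contralateral libraries, at -1.31, is the filled point.

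Seen mouse by mouse, 8 genes were higher on the ipsilateral side in 6 of 6 mice, namely all but Psat1 (3 of 6) and Phgdh (1 of 6). The size differed between mice in a shared order. WT mouse 296 and Astro-KO mouse 298 had the 2 smallest ipsilateral to contralateral ratios of the 6 mice in 7 of these 8 genes, Mthfd2 being the other, and Astro-KO mouse 300 had the largest in 7, with WT mouse 474 first for Asns at 11.0-fold. Ratios of Chac1 ran from 1.29-fold in WT mouse 296 to 34.5-fold in Astro-KO mouse 300, those of Asns from 2.71-fold in Astro-KO mouse 298, and those of Atf4 from 1.30-fold in WT mouse 296 to 2.67-fold in Astro-KO mouse 300. Each genotype held 1 mouse with small and 2 mice with larger differences. In mouse 296 the contralateral value was the highest of the WT mice for Atf4, Ddit3, Atf5, Chac1, Sesn2 and Mthfd2. Its ipsilateral value was the lowest of the WT mice for these genes except Atf4, and for Trib3 and Asns. Infarct size is not among the labels. In the ipsilateral libraries the 8 microglia markers summed to 1602, 1227 and 271 CPM in Astro-KO mice and to 632, 952 and 726 CPM in WT mice, and the 7 neutrophil markers summed to 61.2, 44.2 and 26.6 CPM in Astro-KO mice and to 111, 30.1 and 20.5 CPM in WT mice. The 10 oligodendrocyte markers summed to 10003, 10379 and 23489 CPM in Astro-KO ipsilateral against 7947, 6960 and 5657 CPM in Astro-KO contralateral libraries. In WT mice they summed to 16916, 22376 and 14254 CPM in ipsilateral against 18256, 18210 and 19641 CPM in contralateral libraries. Mouse 300, which had the largest ratios, had the lowest microglia sum and the highest oligodendrocyte sum of the ipsilateral libraries. Mouse 296, with the highest neutrophil sum, had small ratios and the sex-linked counts described above. The part of these differences in the mouse order was not tested.

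**Figure D3:**
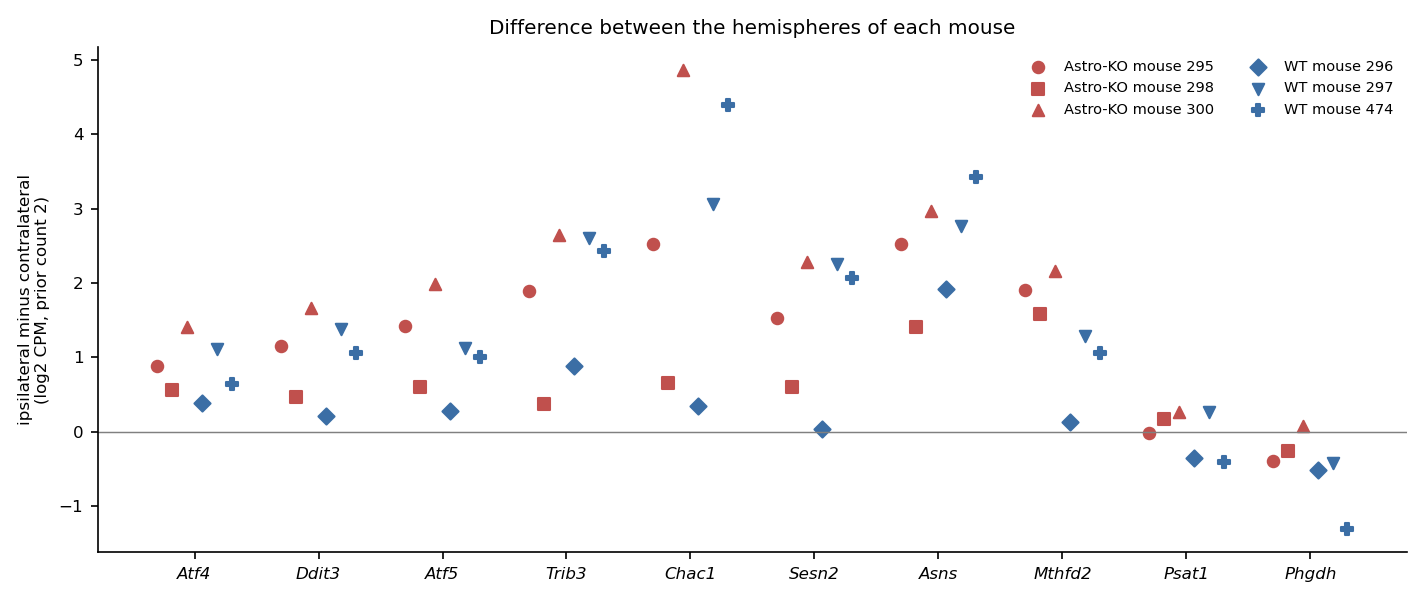
Ipsilateral minus contralateral difference of each mouse for each gene (vertical axis, log2 CPM with a prior count of 2), Astro-KO in red and WT in blue, 1 symbol per mouse. All 6 mice lie above 0 for the first 8 genes, and mice 296 (diamond) and 298 (square) are the lowest pair in 7 of them.

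The member counts depended on single libraries. In WT mice 2 genes were called without the contralateral or without the ipsilateral library of mouse 297, 1 without either library of mouse 474, 4 without the contralateral or ipsilateral library of Astro-KO mouse 295 or the contralateral library of 300, and 3 without the contralateral library of 298. In Astro-KO mice 1 was called without either library of mouse 295 or of mouse 300 and 0 without the contralateral library of 298, whereas 8 were called without the ipsilateral library of 298. The 8 genes kept their positive sign in both genotypes in every one of these fits. In a fit of the 6 WT libraries alone the calls of Atf4, Sesn2, Mthfd2 and Phgdh ended (adjusted p = 0.0577, 0.0582, 0.0614 and 0.0852, in that order), while Atf5 and Chac1 passed (adjusted p = 0.0464 and 0.0487).

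The next question was whether the genotypes differed on the ipsilateral side. Of the 10 genes 0 passed by edgeR, 0 had an unadjusted p under 0.05 and 0 passed by DESeq2, where by edgeR 6.31% of all genes tested passed and 21.8% had an unadjusted p under 0.05. Atf4 was nearly level, with a log2 difference of Astro-KO over WT of 0.021 and a 95% interval of -0.44 to 0.48. Intervals were wide for the low genes, at -1.27 to 2.15 for Chac1 and -1.92 to 0.59 for Trib3, so differences of more than 2-fold in either direction (Chac1) or downward (Trib3) are within them. Asns had a difference of -0.42 (-1.40 to 0.56) and Mthfd2 one of -0.18 (-0.73 to 0.38). Phgdh was the 1 gene with Astro-KO libraries wholly above the WT ones, where 13.7% of genes were, at 227, 214 and 252 CPM in Astro-KO ipsilateral against 157, 207 and 155 CPM in WT ipsilateral libraries, and its log2 difference of 0.41 (-0.012 to 0.84) was not called (adjusted p = 0.244). In these libraries 8 of the 10 astrocyte markers were higher in Astro-KO, with a median log2 difference of 1.02, and their part in the Phgdh values was not tested.

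On the contralateral side 1 of the 10 genes, Mthfd2, was lower in Astro-KO and 0 were higher, where 1.41% of genes tested were lower and 0.0835% higher. Mthfd2 had 7.36, 6.76 and 8.88 CPM in Astro-KO contralateral against 25.1, 15.2 and 16.9 CPM in WT contralateral libraries. The groups lay well apart, the highest Astro-KO library being below the lowest WT library. WT mouse 296, the male by its sex-linked RNA, had the highest of these values, and the part of sex was not tested. The log2 difference was -1.31 ± 0.27 (edgeR, adjusted p = 0.0327), and it was -1.31 with DESeq2 (adjusted p = 0.000416) and -1.07 in TPM (adjusted p = 0.0466, limma). The call ended when any 1 of the 6 contralateral libraries, or the ipsilateral library of Astro-KO mouse 295, was left out, with the sign unchanged.

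Psat1 was the next nearest, at 403, 427 and 403 CPM in Astro-KO contralateral against 593, 536 and 630 CPM in WT contralateral libraries. These groups did not overlap. Its log2 difference of -0.51 (95% interval -0.86 to -0.17) missed the threshold by edgeR (adjusted p = 0.161) and passed it by DESeq2 (adjusted p = 0.0285). All 10 log2 differences were below 0, with a median of -0.32 beside -0.0016 over all genes tested, and 4 genes (Atf5, Trib3, Psat1 and Mthfd2) had Astro-KO libraries wholly below the WT ones, where 13.5% of genes did. In TPM, which shifts the median of all genes by 0.12, the difference of Asns was 0.036. Contralateral oligodendrocyte markers were lower in Astro-KO for 4 of 10 genes, with a median log2 difference of -1.41 and sums of 5657 to 7947 CPM in Astro-KO against 18210 to 19641 CPM in WT libraries, and those of the choroid plexus summed to 711 to 1996 CPM in Astro-KO against 4069 to 7706 CPM in WT libraries, with 1 of 6 lower. The part of these cells in the Mthfd2 and Psat1 values was not tested.

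The difference between the occlusion responses of the genotypes was tested as an interaction, the Astro-KO change minus the WT change. By edgeR 0 of the 10 genes passed and 1, Mthfd2, had an unadjusted p under 0.05, while over all genes 0 of 15571 passed (0.00%) and 4.90% had such a p. DESeq2 called 0 of the 10 genes. For Mthfd2 the log2 change was 1.95 in Astro-KO and 0.81 in WT mice, a difference of 1.14 (95% interval 0.33 to 1.94, adjusted p = 0.948). For Phgdh it was -0.20 in Astro-KO and -0.78 in WT mice, a difference of 0.58 (-0.023 to 1.18). The intervals of Atf4 (-0.34 to 0.96), Ddit3 (-0.62 to 1.14) and Asns (-1.77 to 1.14) included 0. With 3 mice per genotype, differences up to the ends of these intervals remain compatible with the data.

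The rest of the pathway was described through 6 lists of known genes, each given as counts beside the shares of all genes named above. Those shares belong to the edgeR fit of all 12 libraries without a mouse block, and other fits called other numbers of all genes. The cytosolic tRNA synthetases, which charge tRNAs with amino acids and include many ATF4 targets, were higher for 14 of 18 genes in Astro-KO and 13 of 18 in WT mice, with 0 lower in either. All 18 log2 fold changes were above 0 in both genotypes, with medians of 0.73 in Astro-KO and 0.75 in WT mice. Iars, for isoleucine, had 136, 125 and 146 CPM in Astro-KO ipsilateral against 68.2, 74.3 and 71.3 CPM in Astro-KO contralateral libraries, and 136, 280 and 208 CPM in WT ipsilateral against 84.4, 81.7 and 78.8 CPM in WT contralateral ones. Its sides were far apart in both genotypes, with log2 fold changes of 0.93 ± 0.20 in Astro-KO (adjusted p = 0.0240) and 1.35 ± 0.20 in WT mice (adjusted p = 0.00204). Eprs, for glutamate and proline, rose by 0.89 ± 0.18 in Astro-KO and 1.08 ± 0.18 in WT mice, Gars, for glycine, by 0.99 ± 0.18 in Astro-KO and 1.05 ± 0.18 in WT mice, and Tars, for threonine, by 0.68 ± 0.15 in Astro-KO and 0.92 ± 0.15 in WT mice. The counts called were 0 or 1 in Astro-KO without any 1 Astro-KO library other than the ipsilateral one of mouse 298, 3 in TPM, where Iars, Eprs and Tars were no longer called in Astro-KO (adjusted p = 0.0599, 0.0527 and 0.0748, in that order, limma), 6 in WT mice without either library of mouse 297 and 8 without the contralateral library of mouse 474.

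Of 10 amino acid transporters 1 was higher in Astro-KO and 3 in WT mice, and 0 were lower in either. Slc7a11, which imports cystine in exchange for glutamate, had 424, 323 and 319 CPM in Astro-KO ipsilateral against 238, 235 and 242 CPM in Astro-KO contralateral libraries. The WT values were 107, 796 and 605 CPM in ipsilateral against 83.8, 103 and 172 CPM in contralateral libraries. The ipsilateral WT libraries thus spanned a far wider range than the Astro-KO ones, and that of mouse 296 lay within the WT contralateral range. Slc7a11 rose in WT mice by 2.07 ± 0.53 log2 (adjusted p = 0.0196), and its change in Astro-KO was 0.58 ± 0.51 (adjusted p = 0.490). Slc7a1, a carrier of arginine and lysine, rose in WT mice by 1.69 ± 0.28 (adjusted p = 0.00273) and stood at 0.91 ± 0.27 in Astro-KO (adjusted p = 0.0659, and 0.0186 with the mouse as a block). Slc3a2, the partner chain of several amino acid exchangers, rose in WT mice by 0.76 ± 0.18 (adjusted p = 0.0145) and stood at 0.66 ± 0.18 in Astro-KO (adjusted p = 0.0506, and 0.0305 with the mouse as a block). With the mouse as a block 5 transporters passed in Astro-KO, beside 2498 of all 15571 genes, and 6 in WT mice, beside 4641. In TPM 0 passed in Astro-KO. The WT call of Slc7a11 ended in TPM (adjusted p = 0.0587, limma) and in the fit of the 6 WT libraries alone (adjusted p = 0.0880), and its Astro-KO change was called in a fit of the 6 Astro-KO libraries alone (adjusted p = 0.0441).

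The list of serine, one-carbon and proline enzymes went both ways. Of 16 genes 2 were higher and 0 lower in Astro-KO mice, and 3 were higher and 4 lower in WT mice. In TPM 0 passed in Astro-KO, and in the fit of the 6 WT libraries alone 1 passed in WT mice. Aldh18a1, the first enzyme of proline synthesis, had 52.5, 30.2 and 52.5 CPM in Astro-KO ipsilateral against 17.8, 15.5 and 15.7 CPM in Astro-KO contralateral libraries, and 19.2, 49.4 and 55.2 CPM in WT ipsilateral against 9.57, 14.0 and 13.8 CPM in WT contralateral ones. It rose in both genotypes, by 1.46 ± 0.34 log2 in Astro-KO (adjusted p = 0.0301) and 1.73 ± 0.35 in WT mice (adjusted p = 0.00681), and its sides were apart in both, though the Astro-KO call ended in TPM (adjusted p = 0.0700, limma). Aldh1l2, the mitochondrial formyltetrahydrofolate dehydrogenase, rose in WT mice by 2.51 ± 0.59 (adjusted p = 0.0138) and stood at 1.75 ± 0.58 in Astro-KO (adjusted p = 0.0874, and 0.0123 with the mouse as a block). The genes that fell in WT mice were Aldh1l1, the cytosolic counterpart that also serves as an astrocyte marker, the glycine decarboxylase Gldc, the phosphatase Psph, which completes serine synthesis after Psat1, and the mitochondrial serine carrier Sfxn1. Their log2 changes were -0.70 ± 0.16, -0.88 ± 0.22, -0.56 ± 0.15 and -0.64 ± 0.16, in that order, and Psph and Sfxn1 were named after their values were seen. The fit of the 6 WT libraries alone ended the calls of Aldh1l2 (adjusted p = 0.0597), Aldh1l1 (adjusted p = 0.0600) and Gldc (adjusted p = 0.0738). On the ipsilateral side these 4 genes were higher in Astro-KO than in WT mice by 0.76, 0.94, 0.67 and 0.85 log2 (adjusted p = 0.0216, 0.0278, 0.0251 and 0.0132), a comparison that shares the WT ipsilateral libraries with the WT hemisphere contrast. The list's count of 4 such genotype calls was 0 without the ipsilateral library of WT mouse 297, 1 without that of Astro-KO mouse 298 or 300, 2 without that of Astro-KO mouse 295, 1 in a fit of the ipsilateral libraries alone and 2 in TPM. Astrocyte markers fell on the WT ipsilateral side and were higher in Astro-KO there, as given above for Phgdh, and their part in these values was not tested.

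Partners and stress targets of ATF4 were higher for 4 of 14 genes in Astro-KO and 3 of 14 in WT mice, with 0 lower in Astro-KO and 1 in WT mice. Gdf15, a secreted stress hormone, had 70.4, 8.86 and 68.1 CPM in Astro-KO ipsilateral against 1.39, 0.441 and 0.504 CPM in Astro-KO contralateral libraries. WT mice had 3.15, 66.8 and 88.1 CPM in ipsilateral against 0.609, 1.19 and 1.32 CPM in contralateral libraries. The sides were apart, and mice 298 and 296 again had the lowest ipsilateral values of their genotype. Gdf15 rose by 6.00 ± 1.19 log2 in Astro-KO (adjusted p = 0.0178) and 5.64 ± 1.16 in WT mice (adjusted p = 0.00738), against contralateral libraries of 6 to 17 counts. The Astro-KO call of Gdf15 ended without the filter on low counts (adjusted p = 0.0506). Gadd45a, a growth arrest gene, rose by 1.91 ± 0.40 in Astro-KO and 1.30 ± 0.38 in WT mice. Cebpg, a dimer partner of ATF4, rose in WT mice by 0.56 ± 0.16 and stood at 0.51 ± 0.16 in Astro-KO (adjusted p = 0.0711, and 0.0376 with the mouse as a block), and the alanine aminotransferase Gpt2 fell in WT mice by 0.92 on the log2 scale and stood at -0.48 ± 0.18 in Astro-KO (adjusted p = 0.118, and 0.0458 with the mouse as a block). In the fit of the 6 WT libraries alone 2 of the list passed, and the calls of Gadd45a (adjusted p = 0.0577) and Cebpg (adjusted p = 0.0526) ended.

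Upstream, the eIF2 kinases, eIF2 and its regulators were higher for 3 of 14 genes in Astro-KO and 4 of 14 in WT mice, with 0 lower. Eif2s1, the phosphorylated subunit of eIF2, rose by 0.90 ± 0.14 log2 in both genotypes. Ppp1r15b, a phosphatase subunit that removes the phosphate, rose by 0.53 ± 0.12 in Astro-KO and 0.69 ± 0.12 in WT mice, and Eif2b3, a subunit of the exchange factor eIF2B, by 0.61 ± 0.15 in Astro-KO and 0.49 ± 0.15 in WT mice. In TPM the Astro-KO count was 1, and the calls of Ppp1r15b (adjusted p = 0.0683) and Eif2b3 (adjusted p = 0.125) ended there, while the WT call of Eif2b3 ended without the filter on low counts (adjusted p = 0.0508) and in the fit of the 6 WT libraries alone (adjusted p = 0.0855). Eif2ak2, the kinase PKR that senses double-stranded RNA, rose in WT mice by 0.93 ± 0.16 (adjusted p = 0.00304) and stood at 0.40 ± 0.16 in Astro-KO (adjusted p = 0.131).

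The other arms of the unfolded protein response, run by ATF6 and by IRE1 through XBP1, were higher for 2 of 19 genes in Astro-KO and 6 of 19 in WT mice, with 0 lower. With the mouse as a block 9 passed in Astro-KO, beside 2498 of all 15571 genes, and 14 in WT mice, beside 4641. In TPM 0 passed in Astro-KO, and in the fit of the 6 WT libraries alone 3 passed in WT mice. In Astro-KO 6 passed with DESeq2, beside 2057 of all genes. The fit of the 6 Astro-KO libraries alone also called 6, beside 1790 of all genes. Hspa5, the chaperone BiP, rose in WT mice by 0.94 ± 0.25 (adjusted p = 0.0230, and 0.0819 in the fit of the 6 WT libraries alone) and stood at 0.73 ± 0.25 in Astro-KO (adjusted p = 0.0980, and 0.0153 with the mouse as a block). Xbp1 rose in WT mice by 0.63 ± 0.16 and stood at 0.56 ± 0.16 in Astro-KO (adjusted p = 0.0558, and 0.0310 with the mouse as a block), Edem1, which helps to degrade misfolded proteins, rose by 0.62 ± 0.16 in Astro-KO (adjusted p = 0.193 in TPM, limma) and 0.79 ± 0.16 in WT mice, and Atf6 rose in WT mice by 0.69 ± 0.10 and stood at 0.31 ± 0.10 in Astro-KO (adjusted p = 0.0852). Atf6 was also lower in Astro-KO than in WT on the ipsilateral side, by a log2 difference of -0.53 ± 0.10 (adjusted p = 0.0146), which also draws on the WT ipsilateral libraries, and this call ended without the ipsilateral library of WT mouse 297, without both libraries of any Astro-KO mouse and in a fit of the ipsilateral libraries alone. Of the 91 genes tested of the 6 lists, edgeR called 7 between genotypes on the ipsilateral side. An unadjusted p under 0.05 was found for 16, and over all genes these shares were 6.31% and 21.8%. DESeq2 called 10, beside 1753 of all 15571 genes. The 7 included 1 transporter, higher in Astro-KO, and 1 partner or stress target, lower. Both calls ended in a fit of the ipsilateral libraries alone. On the contralateral side edgeR called 0 and DESeq2 3, beside 660 of all genes by DESeq2. There 10 had an unadjusted p under 0.05, and the share over all genes is not given, so this count cannot be set against all genes. As an interaction edgeR called 0 and DESeq2 1, beside 20 of all genes, and 3 had such a p, beside 4.90% of all genes.

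Counts of the 5 lists other than the tRNA synthetases rested on single libraries as well. In Astro-KO mice each count was 0 or 1 without any 1 Astro-KO library other than the ipsilateral one of mouse 298, and without that one it was 5 for the eIF2 list and 3 for the transporters. Transporters also numbered 2 in Astro-KO without either library of WT mouse 296 and 0 without any 1 library of WT mice 297 or 474, and the unfolded protein response genes 1 without either library of mouse 474. In WT mice the partners and stress targets called were 2 without any 1 library of mouse 297 or 474, the transporters 5 without the contralateral library of mouse 296 and 1 without either library of 297, and the serine and one-carbon enzymes 2 without the ipsilateral library of 297 or the contralateral one of 474. The unfolded protein response genes called in WT mice were 10 without the ipsilateral library of 296, 2 without either library of 297 and 3 without the ipsilateral library of 474.

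**Figure D4:**
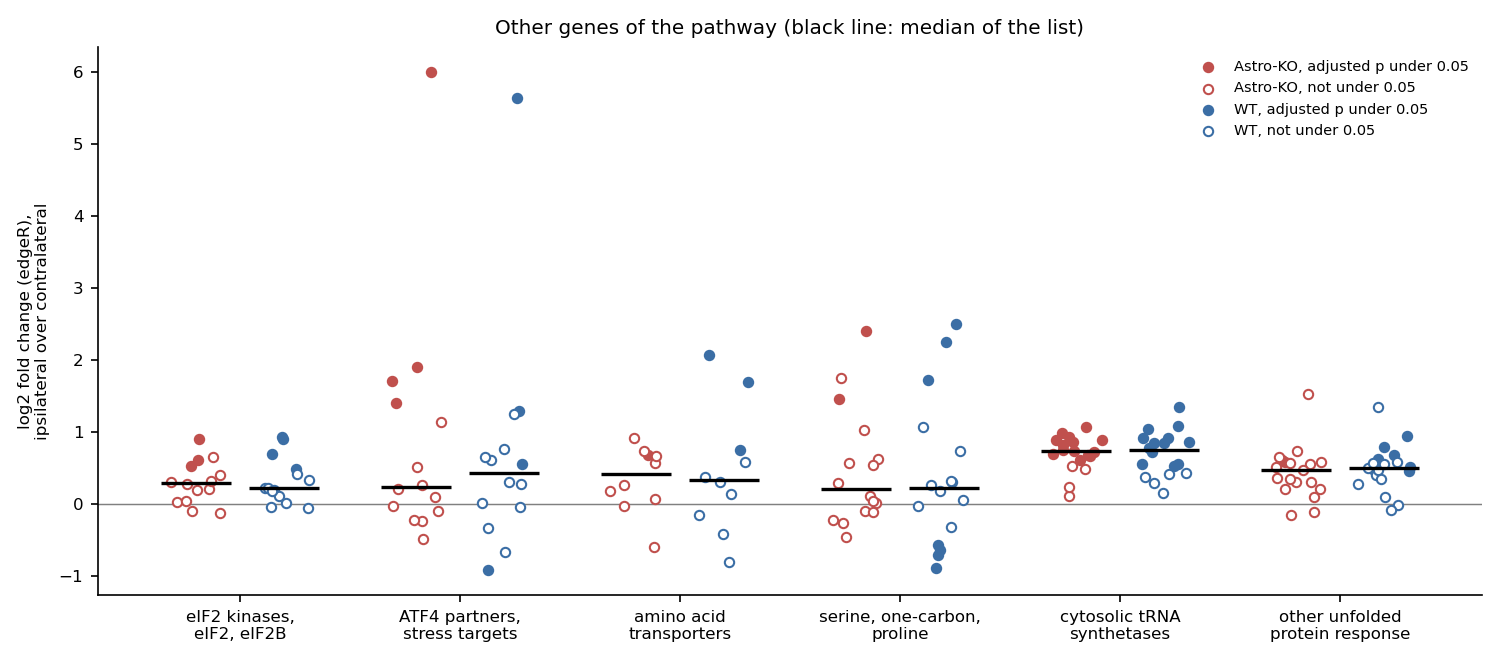
Log2 fold change (edgeR, ipsilateral over contralateral, vertical axis) of each tested gene of 6 pathway lists, Astro-KO in red left of WT in blue, filled where the adjusted p was under 0.05, with a black line at the median of each list. All 18 tRNA synthetases lie above 0 in both genotypes, and the points near 6 are Gdf15.

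The genes whose log2 CPM followed Asns most closely across the 12 libraries were Rras2 (Pearson r = 0.990), Btc (0.979), the tryptophan tRNA synthetase Wars (0.977), Ucn2 (0.975) and Ipo4 (0.975). Those closest to Atf4 were Arpc3 (0.984), the tyrosine tRNA synthetase Yars (0.983), Ube2j2 (0.981), Cfl1 (0.980) and Tmed9 (0.980). These correlations describe 12 libraries from 6 mice that also share the contrast of hemispheres, and carry no test. Rras2, a small GTPase, rose by 1.32 log2 in both genotypes, and Ucn2, a peptide of the corticotropin-releasing family, by 5.84 in Astro-KO and 5.59 in WT mice.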

How the data were processed

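Sequencing covered RNA of astrocytes selected by ACSA-2, per the labels, and each of the 12 libraries has its own deposited table of genes. The authors deposited whole-number expression values, taken as read counts per gene, with TPM and RPKM beside them. RPKM served to check whether counts and normalized values hold the same reads. Reads were placed on mm10 (the submitters' processing notes name this build); which aligner and counter were used, and with which strand setting, is not given in the sources used here. Gene positions are from GENCODE M21 (GRCm38), in which 48349 gene identifiers were found, and promoters from RefSeq (GRCm38.p6).

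The count model was edgeR 4.0.16 in R 4.3.3: filterByExpr (minimum count 10) kept 15571 genes, libraries were TMM-scaled, and a robust quasi-likelihood model with 1 term per group over all 12 libraries left 8 residual degrees of freedom. P-values were adjusted over all genes tested (Benjamini-Hochberg, 0.05). SE is the log2 fold change over the root of F. Intervals are 95% intervals. CPM use TMM-scaled library sizes.

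Alternatives were DESeq2 1.42.0, RLE scaling, no filter beyond 1 count, at least 1 CPM in all libraries of a group, a fit of the 2 groups compared, limma 3.58.1 on log2(TPM + 1) and log2(TPM + 0.1), where genes needed a TPM of 1 or more in 3 libraries, the mouse as a block, and leaving out each library or mouse. TPM values quoted with limma use a pseudocount of 1, and their fold changes understate those of low genes. The procedure was tested on simulated data, and the outcome is not given here. Mouse numbers mark animals and so pair the hemispheres. With group means removed, paired libraries correlated at 0.39, 0.50 and 0.20 (mice 295, 298 and 300) and 0.70, -0.04 and 0.44 (296, 297 and 474) across 12551 genes. Libraries of a group differed by more than counting noise.

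The 10 genes, the lists and the naming rule were chosen with earlier results of these data known. Named list genes are up to 4 per list with the smallest adjusted p in the WT hemisphere contrast, and the 5 genes outside the set closest to Atf4 and to Asns. How far the deletion went is not reported here.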

Additional observations from a re-analysis of the deposited data

How the results depend on the processing

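With the mouse as a replicate block, which pairs the hemispheres of each mouse, 4641 genes passed in WT mice (2982 without it) and 2498 in Astro-KO mice (979), while 7 of the 10 genes passed in WT and 6 in Astro-KO mice; calls that changed stand with the genes, and the block changed no other call among the 10. A fit of only the 2 groups compared called 1579 genes in WT and 1790 in Astro-KO mice, and 196 between genotypes on the ipsilateral side. DESeq2 called 2057 genes in Astro-KO mice, 1753 and 660 between genotypes on the ipsilateral and contralateral side, where it called 2 of the 10 genes, and 20 as an interaction.

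On the TPM scale with pseudocounts 1 and 0.1, 552 and 534 genes passed in Astro-KO mice, 4 of the 10 with either, 149 and 140 between genotypes on the contralateral side, and 2 as an interaction with 0.1. This scale moved the median of all genes by up to -0.19 (Astro-KO hemispheres), 0.14 (contralateral) and -0.17 (interaction). It called 370 higher and 182 lower in Astro-KO mice (848 and 131 in counts), and 347 and 338 between genotypes on the ipsilateral side (675 and 308 in counts).

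Signs reversed on it for uncalled log2 values. These were Psat1 in Astro-KO mice (-0.030 with both pseudocounts), Aldh1l1 there (-0.060), Atf4 (-0.11), Ddit3 (-0.072 and -0.073) and Chac1 (-0.15 and -0.19) between genotypes on the ipsilateral side, Asns on the contralateral side (0.036 and 0.044), and the interactions of Ddit3 (-0.0087 and -0.0086), Chac1 (-0.059 and -0.14) and Sesn2 (-0.20). Atf4 on the ipsilateral side was -0.016 in the fit of 2 groups.

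Leaving out 1 library or mouse gave 659 to 3610 genes and 1 to 9 of the 10 in WT mice, 2 to 2282 and 0 to 8 in Astro-KO mice, 0 to 1351 genes between genotypes on the ipsilateral side, and 0 to 391 and 0 to 1 on the contralateral side. Reversals among these fits, all of uncalled values, had these ranges. Ipsilateral genotype differences ran from -0.23 to 0.22 (Atf4), -0.19 to 0.37 (Ddit3), -1.08 to 0.97 (Chac1), -0.65 to 0.15 (Sesn2) and -0.48 to 0.050 (Mthfd2). Contralateral ones ran from -0.82 to 0.29 (Chac1), -0.60 to 0.0092 (Sesn2), -0.24 to 0.16 (Asns) and -0.33 to 0.11 (Phgdh). Interactions ran from -0.0035 to 0.49 (Atf4), -0.093 to 0.52 (Ddit3), -1.01 to 0.28 (Trib3), -0.82 to 1.68 (Chac1), -0.52 to 0.50 (Sesn2) and -0.91 to 0.032 (Asns). Aldh1l1 in Astro-KO mice ran from -0.031 to 0.20. The cause of these shifts was not tested. With 3 mice per genotype and contralateral counts as low as 6, Chac1 and Trib3 carry the widest intervals.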
